A study of Caenorhabditis elegans with 8 samples.

Results

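The genes described here are the worm *pals*, *skr* and *cul* genes, chosen by name alone as every row of the expression table whose gene symbol starts with *pals-*, *skr-* or *cul-*. The rule found 55 genes of the 17521 in the table, of which 29 are *pals* genes, 20 are *skr* genes and 6 are *cul* genes. RNA of whole *Caenorhabditis elegans* of strain N2, the wild-type laboratory strain, was sequenced from 4 samples given 50 μM atracurium besylate, a blocker of the neuromuscular acetylcholine receptor, and from 4 samples given the water vehicle. Treatment lasted 24 h, starting at larval stage 4 and ending on day 1 of adulthood. The paper names 5-fluorouracil, which stops the growth of progeny, for the plates of its lifespan and mobility assays. Its RNA sequencing methods refer back to earlier descriptions without naming that drug. Each sample pooled about 1000 worms, so that a value is an average over many animals and over all of their tissues. In such bulk samples, fewer cells of a type and less RNA per cell cannot be told apart.

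The 3 families meet in the breakdown of proteins and in the defence against parasites that live inside cells. Cullins are long scaffold proteins that hold a RING protein at one end and a substrate receptor at the other, and so build ubiquitin ligases. SKR proteins are the worm relatives of Skp1, the adaptor that joins an F-box receptor to CUL-1 and its closest relatives. The *pals* genes are an expanded nematode family whose best studied members control or mark the intracellular pathogen response, a programme that microsporidia and Orsay virus switch on in the intestine, and that also includes *cul-6* and some *skr* genes.

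The samples held 35947045, 33354484, 30836643 and 32863131 reads on genes in atracurium replicates 1 to 4, and 34130409, 60015200, 27922986 and 28856174 reads in water vehicle replicates 1 to 4. Levels are given as CPM, the reads of a gene scaled to a fixed library size, and a gene with no read could have had up to 0.0487 to 0.107 CPM, depending on the sample. Sample weights estimated from all genes ran from 0.342 in atracurium replicate 2, the library that departed most from its group, to 2.27 in water vehicle replicate 3. Markers of the tissues of a whole adult were present, with all 8 intestinal, 4 body wall muscle, 8 oocyte and 7 germ line markers measured.

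None of the 55 genes differed between atracurium and water vehicle worms past an adjusted p of 0.05, against 0.177% of all genes (31 of 17521). The test was limma-trend on the deposited log2 CPM, with Benjamini-Hochberg adjustment over all genes, and limma-voom on the recovered reads also called 0 of the 55. At an unadjusted p under 0.05, limma-trend counted 2 of the 55 genes and limma-voom 3, against a limma-trend background of 11.5% of all genes. The CPM of the 4 atracurium samples lay wholly above or wholly below those of the 4 water vehicle samples for 3 of the 55 genes, against 7.16% of all genes. The data therefore give mainly levels, and limits on how far each gene can have moved.

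**Figure D1:**
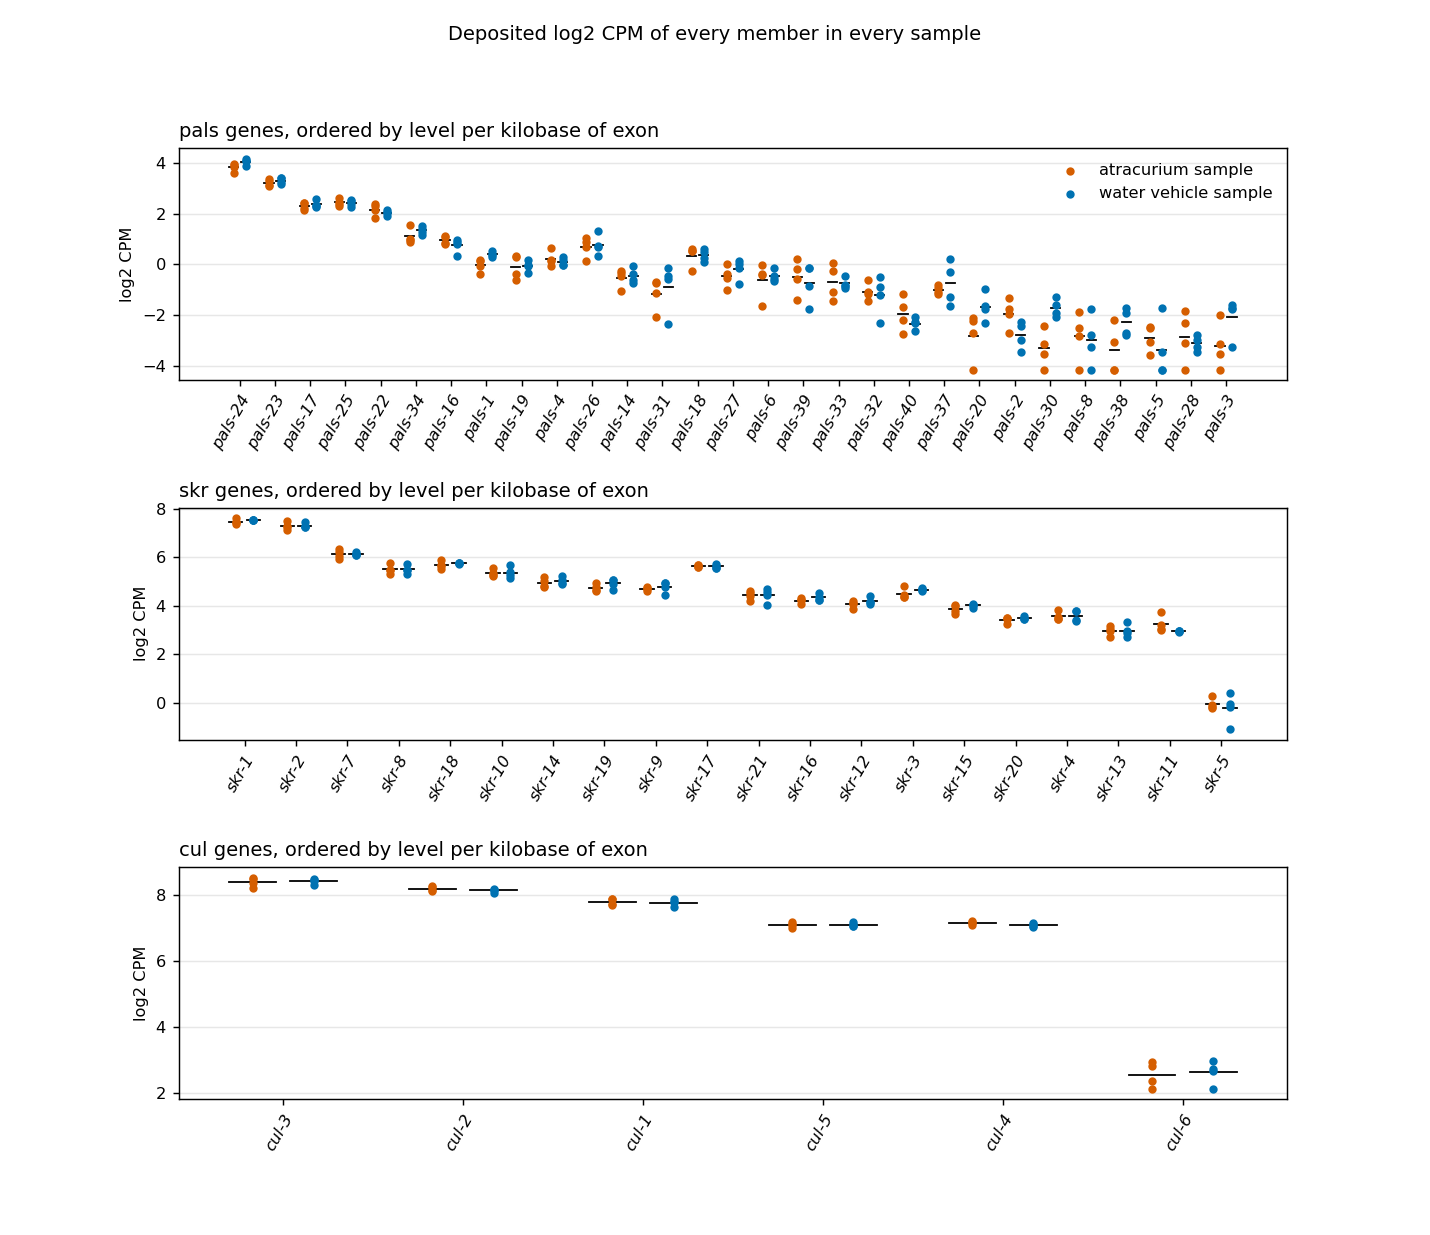
Deposited log2 CPM (vertical axis) of each of the 55 genes in each sample, with 1 panel per family and genes ordered from left to right by level per kilobase of exon. Orange points are atracurium samples, blue points are water vehicle samples and black lines are group means. The *cul* genes other than *cul-6* and most *skr* genes sit high with tightly packed points, while the points of *pals* genes spread out towards the floor of the scale, which stands for 0 reads.

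The families differed widely in level. By mean reads, the *cul* genes stood between the 51.3 and the 97.2 percentile of all genes (median 92.0), the *skr* genes between 28.4 and 92.8 (median 66.9) and the *pals* genes between 2.61 and 61.5 (median 24.8). Per kilobase of exon, the median level was 68.5 CPM for *cul*, 42.97 CPM for *skr* and 0.505 CPM for *pals* genes. The median gene had 6292 reads per sample among *cul*, 910 among *skr* and 23.8 among *pals* genes, and this sets how much could be seen. The 95% interval of the fold change stayed within 2-fold in either direction for all 6 *cul* genes, all 20 *skr* genes and 16 of 29 *pals* genes, and within 1.5-fold for 6, 18 and 6 of them.

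**Figure D2:**
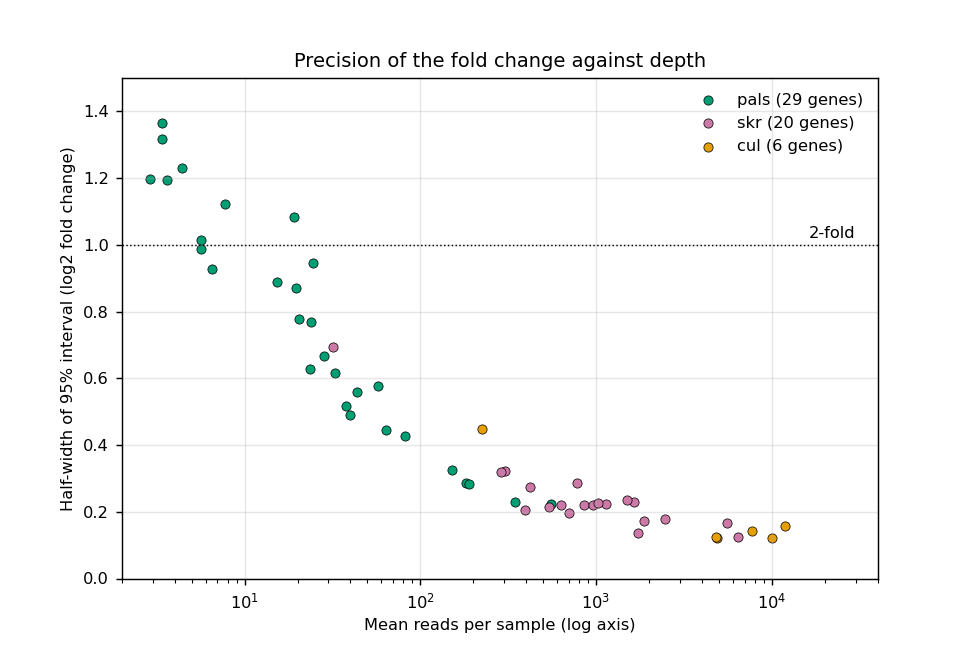
Half-width of the 95% interval of the log2 fold change (vertical axis) against mean reads per sample (horizontal log axis) for the 55 genes, coloured by family. The half-width has a median of 0.77 over *pals* and 0.22 over *skr* genes, and the genes above the dotted line at 2-fold are all *pals* genes.

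Among the cullins, *cul-3* had the highest level per kilobase of exon (106 CPM over the 8 samples), followed by *cul-2* (90.4 CPM), *cul-1* (84.4 CPM), *cul-5* (52.6 CPM), *cul-4* (50.0 CPM) and *cul-6* (2.69 CPM). In this order the samples of *cul-3* and *cul-2*, of *cul-2* and *cul-1*, and of *cul-5* and *cul-4* overlapped, so that the levels fell into a high group, a middle group and *cul-6* far below both. The share of *cul-6* in all cullin CPM was 0.370% to 0.698% in atracurium samples and 0.382% to 0.749% in water vehicle samples.

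*cul-1* (WBGene00000836), the scaffold of the SCF ligase that limits cell divisions in the larva, had 235.15, 212, 207 and 232 CPM in atracurium samples, against 218, 195.9, 218 and 231 CPM in water vehicle samples. *cul-2* (WBGene00000837), which works with elongin C in meiosis and in the germ line, had 276 to 306 CPM in atracurium samples, against 265 to 288 CPM in water vehicle samples. The groups of both genes overlapped, with log2 fold changes of 0.04 (95% interval −0.10 to 0.18) for *cul-1* and 0.06 (−0.06 to 0.18) for *cul-2*. *cul-3* (WBGene00000838), which with the BTB adaptor MEL-26 removes the meiotic katanin MEI-1 from embryos, had 352, 292, 325 and 364 CPM in atracurium samples, against 357, 315, 344 and 343 CPM in water vehicle samples.

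*cul-4* (WBGene00000839), which with DDB-1 keeps DNA from being replicated again within a cell cycle, had 143, 149, 135 and 140 CPM in atracurium samples, against 141, 129, 132 and 137 CPM in water vehicle samples. *cul-5* (WBGene00000840), the partner of the RING protein RBX-2, had 134, 143, 128 and 137 CPM in atracurium samples, against 145, 132, 137 and 132 CPM in water vehicle samples. The log2 fold changes were −0.03 (−0.19 to 0.13) for *cul-3*, 0.07 (−0.05 to 0.19) for *cul-4* and −0.01 (−0.14 to 0.11) for *cul-5*, and none of the 3 genes separated the groups. Adjusted p over *cul-1* to *cul-5* was 0.609 or higher, and each interval left out a fold of 1.143 or more upwards and of 0.877 or less downwards.

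*cul-6* (WBGene00000841, chromosome IV, 12586485 to 12590451) is the cullin of the intracellular pathogen response, where it is induced and raises the capacity to clear damaged proteins. It had 4.34, 7.57, 5.14 and 6.93 CPM in atracurium samples, against 6.63, 7.82, 6.26 and 4.34 CPM in water vehicle samples. The lowest samples of both groups were alike, and the log2 fold change was −0.07 with an interval of −0.51 to 0.38 (adjusted p = 0.918). The interval is the widest among the cullins and still keeps within 0.700 to 1.303 times the water vehicle level.

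Over the *skr* genes, *skr-1* and *skr-2* led with 210 and 207 CPM per kilobase of exon. They lie side by side on chromosome I (9469654 to 9472641) and encode the adaptors that bind CUL-1 and are needed in the embryo and to limit cell proliferation. Together they gave 40.1% to 42.2% of all *skr* CPM in atracurium samples and 39.6% to 42.6% in water vehicle samples. *skr-1* (WBGene00004807) had 173, 166, 173 and 194 CPM in atracurium samples, against 184, 186, 186 and 187 CPM in water vehicle samples, which differed among themselves by far less than the atracurium samples did. Its log2 fold change was −0.07 (−0.20 to 0.05, adjusted p = 0.614). *skr-2* (WBGene00004808) had 156, 151, 139 and 178 CPM in atracurium samples, against 172, 156, 153 and 150 CPM in water vehicle samples, and a log2 fold change of −0.02 (−0.19 to 0.14).

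Next in level came *skr-7* (119 CPM per kilobase), *skr-8* (77.5), *skr-18* (75.1), *skr-10* (71.1), *skr-14* (62.4), *skr-19* (61.0), *skr-9* (45.6) and *skr-17* (45.2), then *skr-21* (40.7), *skr-16* (35.5), *skr-12* (33.6), *skr-3* (30.4), *skr-15* (27.6), *skr-20* (21.1), *skr-4* (17.5), *skr-13* (15.1), *skr-11* (13.9) and *skr-5* (1.42). Of the 19 neighbouring pairs in this order 15 had overlapping samples. The 4 clear steps stood between *skr-2* and *skr-7*, between *skr-7* and *skr-8*, between *skr-19* and *skr-9*, and between *skr-11* and *skr-5*. *skr-7*, *skr-8*, *skr-9* and *skr-10* are close relatives with roles in larval growth, and *skr-8*, *skr-9*, *skr-12* and *skr-13* share a stretch of chromosome IV (17162097 to 17167792). Reads of such close copies may be split or lost in counting, so their single levels are uncertain.

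*skr-7* had 66.6, 73.5, 60.2 and 80.2 CPM in atracurium samples, against 73.0, 67.3, 69.6 and 68.0 CPM in water vehicle samples, and a log2 fold change of 0.01 (−0.17 to 0.18). Of the other close relatives, *skr-8* was at 0.01, *skr-10* at −0.01 and *skr-9* at −0.09 (−0.31 to 0.13). The remaining genes without a role in the pathogen response had log2 fold changes of −0.17 for *skr-19*, −0.15 for *skr-15*, −0.14 for *skr-12*, −0.13 for *skr-16*, −0.08 for *skr-14*, −0.07 for *skr-20*, −0.06 for *skr-18*, −0.01 for *skr-13*, 0.00 (−0.29 to 0.29) for *skr-21* and 0.01 for *skr-17*. None of them had an unadjusted p under 0.05 or separated the groups. The 3 genes on the X chromosome, *skr-19*, *skr-20* and *skr-21*, lie within 13223016 to 13226664 and have 468, 522 and 531 bases of exon.

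*skr-11* (WBGene00004817, chromosome V, 16389241 to 16389865), which the annotation used here calls a pseudogene, was the only *skr* gene whose groups did not overlap. It had 8.03, 8.16, 9.22 and 13.3 CPM in atracurium samples, against 7.76, 7.58, 7.62 and 7.68 CPM in water vehicle samples. Atracurium replicate 4 stood far above the rest, while replicates 1 and 2 lay just above the water vehicle samples. The log2 fold change was 0.30 (−0.02 to 0.63) with an adjusted p of 0.450, and without atracurium replicate 4 it was 0.14. With each sample's trend with gene length removed it was 0.52, with an adjusted limma-trend p of 0.167.

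*skr-3*, *skr-4* and *skr-5* encode the adaptors that act with CUL-6 in the pathogen response and can stand in for each other. *skr-3* (WBGene00004809) had 20.6, 20.4, 21.4 and 27.97 CPM in atracurium samples, against 26.7, 25.4, 24.1 and 24.7 CPM in water vehicle samples. Of the atracurium samples 3 lay below every water vehicle sample and replicate 4 above all of them. The log2 fold change was −0.17 (−0.39 to 0.05, adjusted p = 0.514). It was −0.28 without that replicate and −0.06 with each sample's trend with gene length removed. *skr-4* (WBGene00004810) had 10.7, 10.83, 11.5 and 14.1 CPM in atracurium samples, against 13.6, 10.6, 10.4 and 13.6 CPM in water vehicle samples (log2 fold change −0.03, −0.31 to 0.25).

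*skr-5* (WBGene00004811) was the lowest of the family, with 0.828, 1.16, 0.803 and 0.866 CPM in atracurium samples, against 1.24, 0.909, 0.823 and 0.413 CPM in water vehicle samples. These values come from 121 reads in atracurium and 133 reads in water vehicle samples. The groups overlapped, and the interval of its log2 fold change of 0.18, from −0.51 to 0.87, allows anything between 0.700 and 1.83 times the water vehicle level. The annotated span of the gene and its exons overlap those of *lsy-27* on the other strand over 59 bases, and reads had been counted by strand.

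As a family, the *skr* genes had 5 log2 fold changes above 0 and 15 below, with a median of −0.05 beside −0.01 over all genes. The *skr* median was 0.02 when samples were set to a common median, which moved all genes alike by 0.06. It was −0.04 after quantile normalization. With each sample's trend with gene length removed it was 0.18, beside 0.003 over all genes. The *skr* genes are short, with a median of 585 bases of exon against 1277 over all genes. The sign of the *skr* median therefore depended on the processing, and its place below the median of all genes changed with the length trend removed. The summed CPM of the family was 764 to 882 in atracurium samples and 807 to 865 in water vehicle samples. The *cul* median was 0.01, with 3 genes above and 3 below 0, and was −0.01 after quantile normalization and −0.05 with the length trend removed.

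**Figure D3:**
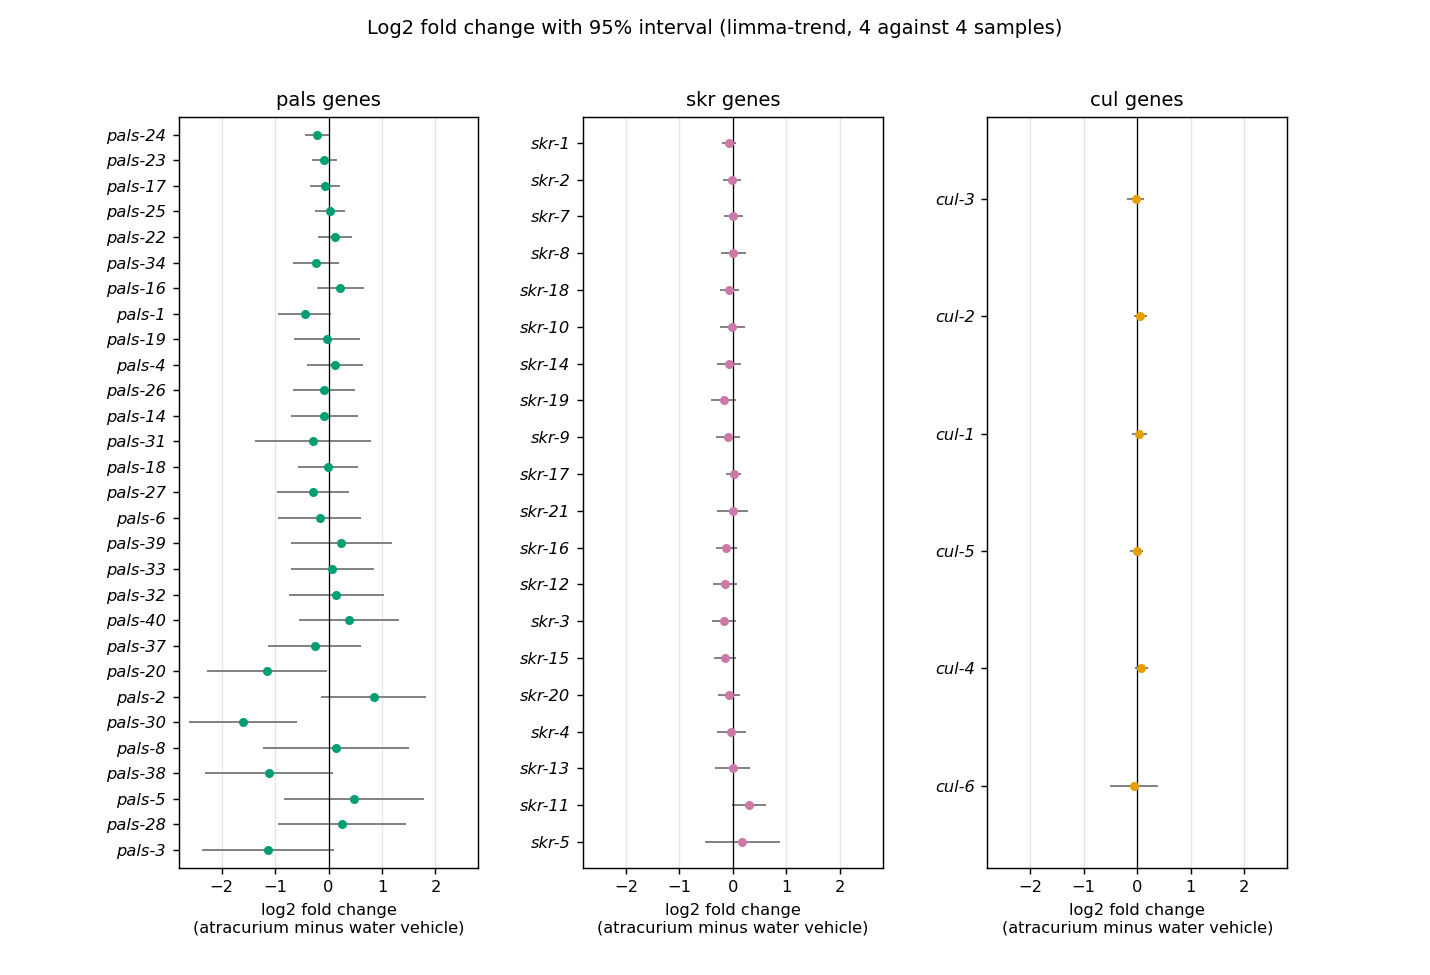
Log2 fold change of atracurium over water vehicle samples (horizontal axis) with its 95% interval from limma-trend, for the genes of each family from the highest level per kilobase of exon at the top to the lowest. Intervals widen towards the bottom of the *pals* panel, and those of *pals-20* and *pals-30* are the 2 that leave out 0.

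The *pals* genes had low levels with a steep order. Per kilobase of exon, *pals-24* stood first at 15.2 CPM, then *pals-23* (6.44), *pals-17* (5.77), *pals-25* (5.01), *pals-22* (4.78), *pals-34* (3.08) and *pals-16* (1.66). Of the 28 neighbouring pairs, 25 had overlapping samples, and the 3 clear steps lay below *pals-24*, below *pals-22* and below *pals-34*. The 5 leading genes gave 66.3% to 73.9% of all *pals* CPM in atracurium samples and 68.9% to 72.6% in water vehicle samples, while the other 24 shared the rest. At the low end, 9 genes averaged under 10 reads per sample and 7 had no read in at least 1 sample.

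*pals-24*, *pals-23*, *pals-22* and *pals-25* are neighbours on chromosome III (120435 to 137975). *pals-22* (WBGene00016216) holds the pathogen response down in healthy worms and *pals-25* (WBGene00020540) switches it on when *pals-22* is lost, so that the pair acts as a switch. *pals-22* had 3.48, 4.39, 5.107 and 4.89 CPM in atracurium samples, against 4.32, 4.12, 3.76 and 4.06 CPM in water vehicle samples. *pals-25* had 4.86, 6.17, 5.49 and 5.17 CPM in atracurium samples, against 5.77, 4.69, 5.69 and 5.13 CPM in water vehicle samples. Both genes had overlapping groups, with log2 fold changes of 0.12 (−0.21 to 0.45, adjusted p = 0.759) for *pals-22* and 0.03 (−0.26 to 0.31, adjusted p = 0.951) for *pals-25*.

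*pals-24* (WBGene00016219), the member with most reads, had 14.5, 15.2, 15.4 and 12.07 CPM in atracurium samples, against 16.8, 18.0, 14.6 and 16.7 CPM in water vehicle samples. Water vehicle replicate 3 lay among the atracurium samples, and the log2 fold change was −0.21 (−0.43 to 0.01, adjusted p = 0.452). With limma-voom its unadjusted p was 0.048 and its adjusted p 0.384. *pals-23* (WBGene00016218) had 9.63, 8.60, 10.4 and 8.66 CPM in atracurium samples, against 10.5, 10.5, 8.98 and 9.44 CPM in water vehicle samples (log2 fold change −0.08, −0.31 to 0.15). The 4 neighbours thus had 2 log2 fold changes above 0 and 2 below.

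A second set of regulators lies on the same chromosome at 1376945 to 1406263, together with *pals-40*, *pals-19* and *pals-18*. *pals-17* (WBGene00022346), another repressor of the response, had 5.34, 5.25, 4.40 and 4.64 CPM in atracurium samples, against 4.71, 5.87, 4.94 and 4.99 CPM in water vehicle samples, with a log2 fold change of −0.06 (−0.35 to 0.22). *pals-16* (WBGene00022337), which promotes the response when *pals-17* is lost, had 1.71, 1.75, 2.12 and 2.07 CPM in atracurium samples, against 1.69, 1.91, 1.79 and 1.21 CPM in water vehicle samples. It had the second highest log2 fold change among *pals* genes averaging 10 or more reads, 0.22 (−0.22 to 0.67, adjusted p = 0.673), and its groups overlapped.

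*pals-20* (WBGene00194746), which acts on the same side as *pals-16*, was one of the 2 *pals* genes with an unadjusted limma-trend p under 0.05. It had 6, 0, 3 and 5 reads in atracurium samples, against 9, 28, 4 and 7 reads in water vehicle samples, of which replicate 2 was sequenced most deeply. In CPM these are 0.171, 0, 0.0964 and 0.155 in atracurium samples, against 0.266, 0.454, 0.143 and 0.241 in water vehicle samples. The groups overlapped, since 2 atracurium samples lay above the lowest water vehicle sample. The log2 fold change was −1.14 (−2.26 to −0.02, adjusted p = 0.429), and it was −0.69 without atracurium replicate 2. The summed reads, 14 in atracurium and 48 in water vehicle samples, gave a ratio of 0.336 after library size (95% exact binomial interval 0.171 to 0.620, counting error only). The gene lies wholly inside Y82E9BR.5, which is read from the other strand.

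*pals-30* (WBGene00013294, chromosome IV, 14549667 to 14551970) had the smallest p of all 55 genes, and its role is not described in the sources used here. It had 2, 1, 4 and 0 reads in atracurium samples, against 12, 13, 5 and 8 reads in water vehicle samples. In CPM these are 0.0571, 0.0297, 0.128 and 0 in atracurium samples, against 0.355, 0.211, 0.179 and 0.276 in water vehicle samples, and the groups did not overlap. The log2 fold change was −1.60 (−2.62 to −0.59, adjusted p = 0.283). Over the alternatives of test, scaling, prior count and left-out samples its adjusted p was never below 0.160. Its summed reads, 7 in atracurium and 38 in water vehicle samples, gave a ratio of 0.212 (0.0800 to 0.481), which rests on 45 reads in all. Of the atracurium samples only replicate 3 had over the 2 reads that the filter asks for, so the gene entered the test through the water vehicle samples. Its p, its lack of overlap and its ratio cannot be read apart from that filter.

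*pals-1* (WBGene00008858, chromosome I, 11579856 to 11581989) was the other *pals* gene whose groups did not overlap. It had 1.06, 1.04, 0.899 and 0.712 CPM in atracurium samples, against 1.15, 1.396, 1.29 and 1.24 CPM in water vehicle samples. The highest atracurium sample lay close below the lowest water vehicle sample. The log2 fold change was −0.44 (−0.94 to 0.05, adjusted p = 0.463), the lowest among *pals* genes averaging 10 or more reads, and between −0.51 and −0.33 with any 1 sample left out. Its 123 reads in atracurium and 197 in water vehicle samples gave a ratio of 0.720 (0.570 to 0.906, counting error only).

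*pals-5* (WBGene00007659), whose promoter drives the fluorescent reporter most used for the pathogen response, was barely read in either group. It had 1, 4, 2 and 4 reads in atracurium samples, against 0, 15, 0 and 1 reads in water vehicle samples, or 0.0286, 0.119, 0.0642 and 0.124 CPM against 0, 0.243, 0 and 0.0344 CPM. The highest and the lowest values were both in water vehicle samples. Its fitted log2 fold change of 0.48 (−0.84 to 1.79, adjusted p = 0.765) and the ratio of its summed reads, 0.793 (0.333 to 1.82), lie on opposite sides of no change, so that no direction can be read.

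*pals-5* stands in the cluster on chromosome I (13104251 to 13141898) with *pals-2*, *pals-3*, *pals-4*, *pals-8*, *pals-6* and *pals-14*. These 7 genes averaged 3.38 to 37.9 reads per sample and had 4 log2 fold changes above 0 and 3 below. *pals-2* had 7, 8, 3 and 11 reads in atracurium samples, against 5, 8, 2 and 1 reads in water vehicle samples, with the highest log2 fold change of the 55 genes at 0.84 (−0.15 to 1.83, adjusted p = 0.480). *pals-3* had 2, 1, 6 and 0 reads in atracurium samples, against 8, 3, 7 and 8 reads in water vehicle samples, with a log2 fold change of −1.13 (−2.36 to 0.10). The gene span of *pals-3* overlaps that of *pals-4* on the other strand over 702 bases, with 11 bases shared between exons, and that of *pals-12*, not analysed here, on the same strand over 2287 bases, with 1185 bases shared between exons. Its reads are therefore uncertain.

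Low genes made up the remaining clusters, *pals-26*, *pals-27* and *pals-28* on chromosome III (4375154 to 4387757) and *pals-37*, *pals-39* and *pals-38* on chromosome V (12437440 to 12446995). *pals-27* had a log2 fold change of −0.29 (−0.96 to 0.37) and *pals-39* one of 0.24 (−0.71 to 1.18), the highest among *pals* genes averaging 10 or more reads. *pals-38* had 0, 0, 5 and 2 reads in atracurium samples, against 3, 6, 7 and 6 reads in water vehicle samples, and a log2 fold change of −1.12 (−2.31 to 0.08, adjusted p = 0.452). The single genes *pals-31*, *pals-32*, *pals-33* and *pals-34* on chromosome V had log2 fold changes of −0.29, 0.14, 0.07 and −0.23. None of these genes separated the groups.

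Of the 29 *pals* genes, 12 had log2 fold changes above 0 and 17 below, from −1.60 to 0.84. Their median of −0.06 moved to 0.00 at a common median and to 0.03 after quantile normalization. These scalings also moved the median of all genes, by 0.06 and 0.03. With limma-trend, the 20 genes averaging 10 or more reads held none with an unadjusted p under 0.05, and the 9 below that held both. With limma-voom the 20 held 1, *pals-24*, and the 9 held 2. The summed CPM of the family was 52.1, 53.6, 56.5 and 53.5 in atracurium samples, against 57.9, 60.7, 55.02 and 56.2 in water vehicle samples, with atracurium replicate 3 above water vehicle replicates 3 and 4.

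**Figure D4:**
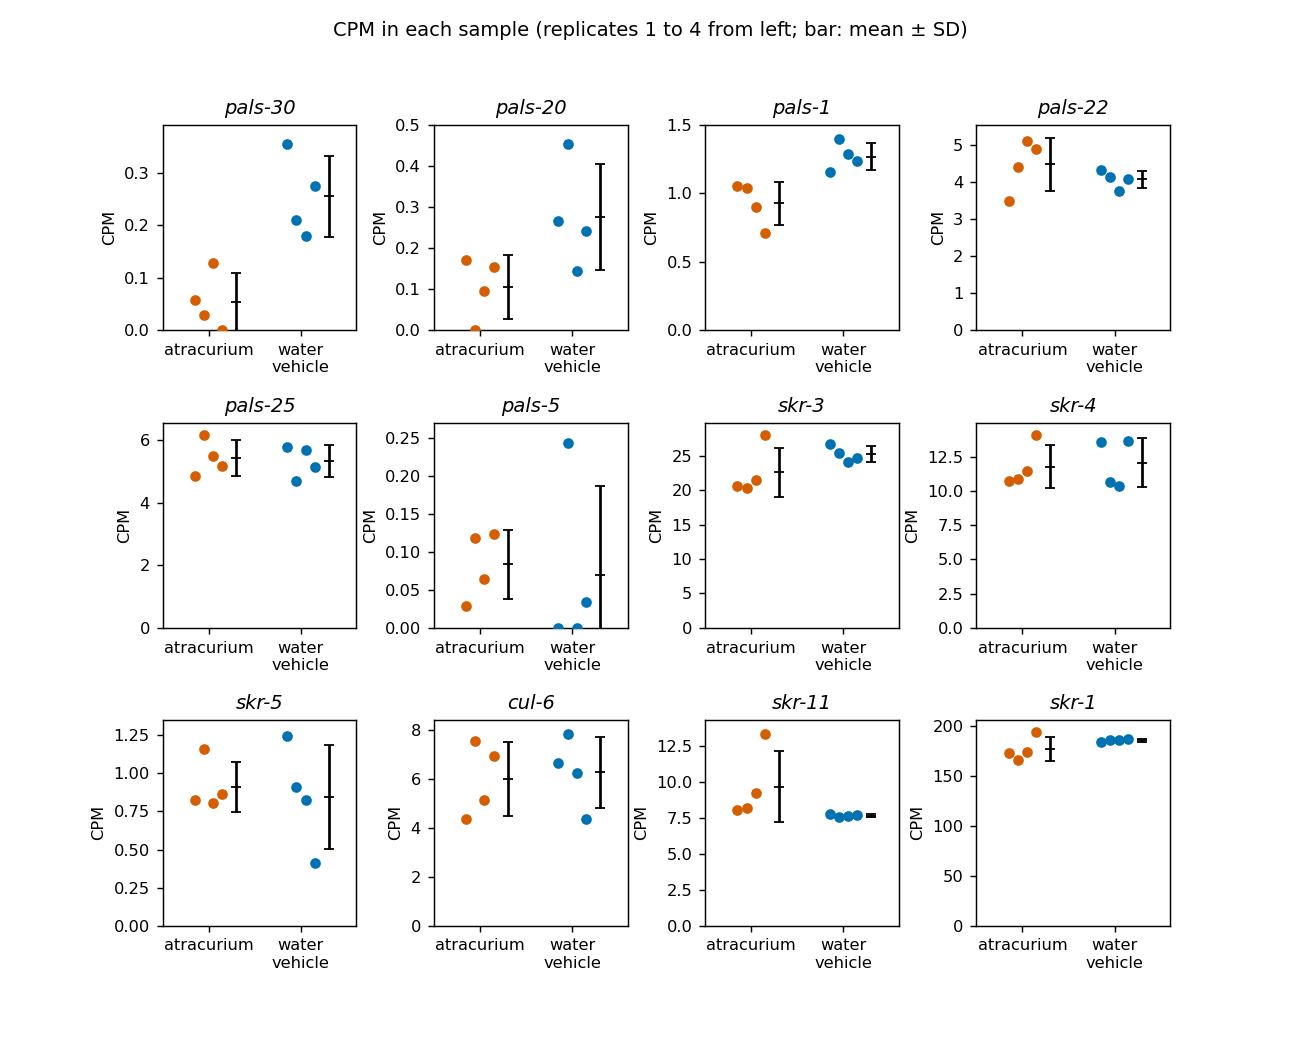
CPM (vertical axis, from 0) of 12 genes in each sample, with atracurium replicates 1 to 4 in orange on the left and water vehicle replicates 1 to 4 in blue on the right of each panel, and bars for the mean ± SD, not drawn below 0. The groups are apart in *pals-30*, *pals-1* and *skr-11*, and they overlap in the switch pair *pals-22* and *pals-25*, the reporter gene *pals-5* and the ligase genes *skr-3*, *skr-4*, *skr-5* and *cul-6*.

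The other genes of the pathogen response were set beside the *pals* genes as a list of 63, of which 38 were measured. None passed an adjusted p of 0.05 with limma-trend or limma-voom, and 2 had an unadjusted p under 0.05 with limma-trend and 3 with limma-voom, against 11.5% of all genes with limma-trend and 2244 of 17521 with limma-voom. Their log2 fold changes had a median of 0.05, with 23 above and 15 below 0. *drh-1*, the viral RNA receptor upstream of the response, was at 0.08 (adjusted p = 0.635), *zip-1*, a bZIP transcription factor that acts downstream of it, at 0.02 (adjusted p = 0.926), and *rcs-1* (C28G1.5), a RING protein that works with CUL-6, at 0.14 (adjusted p = 0.684). *eol-1*, a gene induced by virus, was at 0.62 with 111 reads in atracurium and 94 in water vehicle samples (adjusted p = 0.553), and at 0.17 without water vehicle replicate 4, which had 5 of those reads.

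*pnp-1* (K02D7.1), a purine nucleoside phosphorylase that represses the response, had 69.7, 71.8, 69.8 and 72.9 CPM in atracurium samples, against 66.7, 62.3, 67.2 and 64.1 CPM in water vehicle samples. All 4 atracurium samples lay above the water vehicle samples, by a log2 fold change of 0.13 (0.01 to 0.25, adjusted p = 0.421). F26F2.5, a response gene of unnamed function, had 0, 0.178, 0.385 and 0.0928 CPM in atracurium samples, against 0.503, 0.276, 0.250 and 0.482 CPM in water vehicle samples (log2 fold change −1.29, adjusted p = 0.425). It rests on 21 reads in atracurium and 55 in water vehicle samples, and its groups overlapped.

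The partners with which cullins and SKR proteins build ligases were well expressed, and 39 of the 42 listed were measured, with a median of 4541 reads per sample. None passed an adjusted p of 0.05 with limma-trend or limma-voom. At an unadjusted p under 0.05 there were 6 with limma-trend, 4 with higher and 2 with lower levels under atracurium, and 7 with limma-voom. The 6 are 15.4% of the partners, beside 11.5% of all genes. The groups of 6 partners did not overlap, also 15.4%, beside 7.16% of all genes, and the median log2 fold change was 0.01. After the trend with gene length was removed, 2 partners had an unadjusted p under 0.05, *mec-15* and the elongin B gene *elb-1*, of which *mec-15* was among the 6.

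Of the shared core, *rbx-1*, the RING protein of most cullin ligases, had 147, 97.8, 161 and 182.1 CPM in atracurium samples, against 170, 180, 163 and 174 CPM in water vehicle samples. *ned-8*, the ubiquitin-like protein that activates cullins, had 44.5, 21.4, 48.2 and 48.5 CPM in atracurium samples, against 42.8, 51.7, 51.3 and 57.7 CPM in water vehicle samples. Both were lowest in atracurium replicate 2, the library with the smallest weight. Their log2 fold changes were −0.26 (adjusted p = 0.489) for *rbx-1*, or −0.08 without that library, and −0.39 (adjusted p = 0.487) for *ned-8*, or −0.11 without it. *cand-1*, which exchanges the receptors of cullins, was at 0.11 (adjusted p = 0.600). *rbx-2*, the RING partner of CUL-5, was also lowest in that library, with 18.7, 10.6, 17.02 and 16.9 CPM in atracurium samples, against 20.1, 19.0, 19.4 and 21.8 CPM in water vehicle samples (log2 fold change −0.37, adjusted p = 0.380, or −0.19 without it).

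Among substrate receptors, *wdr-23*, the CUL-4 receptor that represses the stress factor SKN-1, had 136, 142, 138 and 138 CPM in atracurium samples, against 125, 123, 124 and 127 CPM in water vehicle samples. The groups were clearly apart, with a log2 fold change of 0.15 (0.05 to 0.26, adjusted p = 0.316). *rpm-1*, a ubiquitin ligase of the presynaptic terminal that acts with the F-box protein FSN-1, had 19.4, 16.7, 19.6 and 16.6 CPM in atracurium samples, against 12.94, 15.7, 15.3 and 14.6 CPM in water vehicle samples, with a log2 fold change of 0.30 (0.09 to 0.51, adjusted p = 0.310). The remaining partners with an unadjusted p under 0.05 were *kel-8*, a CUL-3 adaptor of the synapse, at 0.18 (adjusted p = 0.387), *zyg-11*, a CUL-2 receptor of meiosis, at 0.16 (adjusted p = 0.433), and *mec-15*, an F-box protein of touch neurons, at −0.14 (adjusted p = 0.370). With the trend with gene length removed, the log2 fold changes of these genes were 0.07 for *wdr-23*, 0.16 for *rpm-1*, 0.12 for *kel-8*, 0.09 for *zyg-11*, −0.14 for *mec-15* and −0.11 for *rbx-2*.

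**Figure D5:**
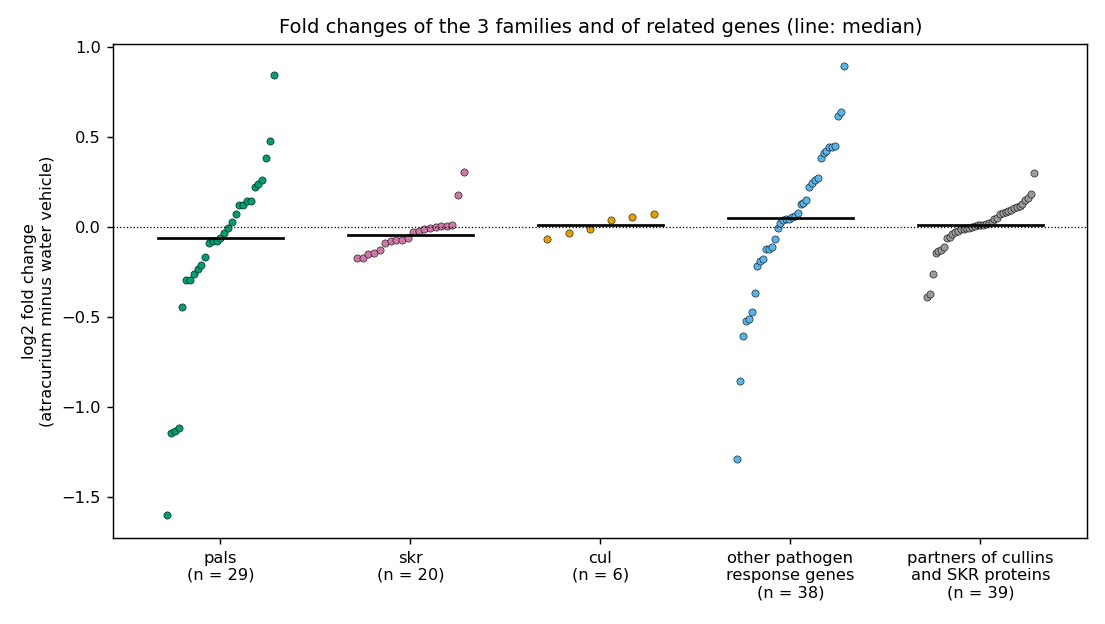
Log2 fold change of atracurium over water vehicle samples (vertical axis) of each gene in the 3 families, in the 38 other pathogen response genes and in the 39 partners of cullins and SKR proteins, with genes in ascending order within a column and a black line at the median. The medians lie between −0.06 and 0.05, and the spread is wide for *pals* and other pathogen response genes, which have few reads, and narrow for the rest.

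The part that other cell types have in the values above was not tested, and the levels of their markers are given here. Of 35 sperm markers measured, 26 had an unadjusted p under 0.05, all lower under atracurium and all of them *msp* genes, beside 11.5% of all genes, and none passed an adjusted p of 0.05. Since 31 of the 35 are *msp* genes, members of 1 family, the 26 are not separate signals, and no sperm marker outside that family had an unadjusted p under 0.05. The median log2 fold change of the 35 was −0.71, and with the trend with gene length removed it was −0.34 and 11 had an unadjusted p under 0.05. Their summed level was 84.3 to 179 CPM in atracurium samples and 186 to 225 CPM in water vehicle samples, which did not overlap, and 0 of them were without reads in a whole group, while 3 had no read in at least 1 sample. The 8 oocyte markers summed to 8775 to 9492 CPM in atracurium samples and 8052 to 8826 CPM in water vehicle samples. The 7 germ line markers summed to 2944 to 3200 CPM against 2800 to 3021 CPM, and the 8 embryo markers to 432 to 461 CPM against 407 to 433 CPM. The groups overlapped in each of these sums. With limma-trend, 0 oocyte, 1 germ line (higher under atracurium) and 0 embryo markers had an unadjusted p under 0.05. The 8 intestinal markers, from the tissue of the pathogen response, summed to 1266 to 1387 CPM in atracurium samples and 1055 to 1309 CPM in water vehicle samples. The 4 body wall muscle markers summed to 2380 to 2745 CPM in atracurium samples and 2107 to 2406 CPM in water vehicle samples. The groups overlapped in the intestinal and the muscle sums. Of the muscle markers 3 had an unadjusted limma-trend p under 0.05 and 3 did not overlap between groups, all higher under atracurium. Of the intestinal markers 2 had such a p and 1 did not overlap, also higher, beside 11.5% and 7.16% of all genes. None passed an adjusted p of 0.05, and with the trend with gene length removed 0 of either had an unadjusted p under 0.05.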

How the data were processed

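The authors trimmed reads with Trimmomatic 0.32, aligned them to WBcel235 with HISAT2 2.1.0 and obtained stranded gene counts with HTSeq 0.11.0. A gene was kept where 3 or more samples each had over 2 reads, so rarer members could not enter the test. *pals-3*, *pals-30* and *pals-38* had enough such samples only in the water vehicle group, and *pals-2* only in the atracurium group. Their differences therefore cannot be read apart from the filter. The deposited values are log2 CPM, which the authors made with TMM factors and a prior count that averaged 2 reads. The prior pulls the fold changes of sparse genes towards 0.

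Since these values share a floor, reads could be worked back from it (100% within 0.1 of a whole number), and CPM in the text is these reads over the normalized library, with no prior. Groups come from the labels. Differences were tested with limma-trend (limma 3.58.1, R 4.3.3) on the authors' log2 CPM for 17521 genes, two-sided, with Benjamini-Hochberg adjustment over all of them, and the test was checked on simulated reads. Fold changes are atracurium minus water vehicle on the log2 scale, with 95% intervals. Ratios of summed reads carry 95% exact binomial intervals. These and the limit for 0 reads (3 reads) cover counting error only. The paper states that 4 samples were grown, and the labels do not say whether they came from separate cultures. The p-values therefore set each difference against the spread between these samples only, an estimate that also draws on other genes. All columns of samples were used (0 left out).

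Exonic lengths (union of exons) and coordinates come from Ensembl release 115 of WBcel235, which held all 55 genes. *pals-7*, *pals-9* to *pals-13*, *pals-15*, *pals-21*, *pals-29* and *skr-6* are annotated there and were not analysed here. The genes and lists were chosen with earlier results of these data known. Genes named are every *cul* and *skr* gene, *pals* regulators and the reporter, *pals* genes with an unadjusted p under 0.05, most reads, or the 3 highest and 3 lowest fold changes at 10 or more mean reads, and core or low-p members of the lists. The other *pals* genes were named for their level or position, and *pals-1*, *pals-2*, *pals-3* and *pals-38* were described more fully after their values were seen.

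Alternatives were limma without the trend, with robust moderation or sample weights, limma-voom on recovered reads, a common median, quantile normalization, prior counts of 5 and 0.5, a stricter filter (4 or more samples with log2 CPM over 0), removal of each sample's lowess trend with exonic length, leaving out each sample, and a block for the replicate number.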

Additional observations from a re-analysis of the deposited data

Results flagged for a closer look

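In 4 of the 110 sets of 4 samples tested, 1 sample lay far from the other 3 by Dixon's ratio of the gap to the whole range (above its 95% critical value), where chance gives about 1 in 20. *pals-18* in atracurium replicate 2 had 0.771 CPM, against 1.38 to 1.46 CPM in the other atracurium samples (ratio 0.915). *skr-3* in atracurium replicate 4 had 27.97 CPM, against 20.4 to 21.4 CPM in the others (ratio 0.839). *pals-3* in water vehicle replicate 2 had 0.0487 CPM from 3 reads, against 0.237 to 0.276 CPM from 7 or 8 reads in the others (ratio 0.892). *skr-12* in water vehicle replicate 2 had 21.3 CPM, against 16.9 to 17.6 CPM in the others (ratio 0.831).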

How the results depend on the processing

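No *pals*, *skr* or *cul* gene passed an adjusted p of 0.05 in any of the 19 alternatives, where the smallest adjusted p was 0.160, 0.167 and 0.353 in these families. The log2 fold change changed sign in at least 1 alternative for 38 of the 55 genes and in none for 17. Over all genes, 31 calls became 16 without the trend, 139 with sample weights, 20 with the replicate number as a block, and 17 to 78 with 1 sample left out (17 without atracurium replicate 1, 78 without atracurium replicate 2, 18 without water vehicle replicate 2 and 20 without water vehicle replicate 3). The causes were not tested. At a common median, medians of log2 fold changes became 0.0166 for *skr*, 0.0771 for *cul*, 0.115 for other pathogen response genes and 0.0755 for partners. After quantile normalization they became 0.0331 for *pals* and 0.125 for other pathogen response genes. With the length trend removed they became 0.177 for *skr*, −0.0521 for *cul* and 0.00447 for other pathogen response genes. These scalings moved the median of all genes by 0.06 (common median) and 0.03 (quantile). Leaving out 1 sample gave medians from −0.130 to 0.0767 for *pals*, the highest without atracurium replicate 1, and from −0.00403 to 0.0397 for partners, the highest without atracurium replicate 3.

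Same-numbered samples shared little of their deviations over all genes, with correlations of −0.0147, −0.0572, 0.00521 and 0.0362, all under 0.1. Whether same-numbered samples shared a culture or a batch was not tested. The block called 0 of the 55 genes, as did the fit without it. The stricter filter kept 11 *pals*, 19 *skr* and 6 *cul* genes. Depth limits the *pals* genes most, of which 16 of 29 had intervals within 2-fold.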
